A study of Mus musculus with 11 samples.

Results

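The genes described here are 39 genes that act in mitosis, taken from a list by name: cyclin-dependent kinase 1 and its partners, mitotic kinases, spindle checkpoint proteins, kinetochore proteins and the machinery that separates chromosomes and daughter cells. They were 39 of the 35056 genes for which reads could be summed, and all 39 passed the filter on low counts that left 14106 genes for testing. Their levels were measured by bulk RNA sequencing in KP1 cells, a mouse small cell lung cancer line mutant for Rb and p53 and grown in suspension. The 2 control libraries (replicates 2 and 3) came from untreated KP1 cells, and the 3 irradiated libraries (replicates 1, 2 and 3) from the same line collected 24 h after 5 Gy. Both groups were therefore Rb and p53 mutant, and the comparison was between cultures of a single line. Single-cell libraries of the same series were not analysed here.

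Cells prepare for division in G2 by building up cyclins A and B, which bind and activate CDK1. The genes that carry out mitosis are transcribed together late in the cell cycle by FOXM1, B-MYB and the MuvB complex, which bind a short promoter element called the cell cycle genes homology region (CHR), often next to CCAAT boxes bound by NF-Y. During mitosis the kinetochore couples each chromosome to the spindle, and the spindle checkpoint holds back the anaphase-promoting complex (APC/C) until every kinetochore is attached. Radiation-damaged cells commonly delay before mitosis at the G2 checkpoint, which in cells without p53 depends mainly on the checkpoint kinases that restrain CDK1.

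The promoters of these genes show the shared regulatory letters. Of the 39 genes, 32 had an entry in the RefSeq promoter table of build GRCm38.p6, with 35 windows that run from 250 bases before to 50 bases after a transcription start. The CHR core (TTTGAA or TTTAAA, either strand) was found in 27 of the 35 windows (77.1%), against 27.6% of all 32851 windows of the table, and CCAAT on either strand in 74.3% against 37.4%. Both motifs together were found in 65.7% of the genes' windows and in 10.7% of all windows, and 2 or more CCAAT boxes in 51.4% against 11.7%. TTTAAA reads the same on both strands and was counted once, and neither motif contains the other. The 250 bases before the start are printed for 4 genes that were lower after irradiation in both analyses described later (Top2a, Cenpf, Ttk and Cenpe) and for 2 short genes that passed neither test (Ccnb2 and Cdc20), to show where these motifs lie. Capitals mark the CHR core and CCAAT boxes (ATTGG and TTCAAA are the reverse strand).
Top2a, chr11:99024190-99024439, minus strand: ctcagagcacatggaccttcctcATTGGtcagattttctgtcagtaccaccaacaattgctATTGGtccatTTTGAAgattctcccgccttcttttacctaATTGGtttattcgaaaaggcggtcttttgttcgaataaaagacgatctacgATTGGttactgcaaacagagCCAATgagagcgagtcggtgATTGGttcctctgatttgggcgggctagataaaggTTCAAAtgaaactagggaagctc
Cenpf, chr1:189688087-189688336, minus strand: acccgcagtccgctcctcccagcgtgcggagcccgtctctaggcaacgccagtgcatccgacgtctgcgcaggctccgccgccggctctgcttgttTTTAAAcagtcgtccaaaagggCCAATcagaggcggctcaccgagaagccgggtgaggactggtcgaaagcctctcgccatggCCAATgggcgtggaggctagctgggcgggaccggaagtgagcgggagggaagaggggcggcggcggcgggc
Ttk, chr9:83834439-83834688, plus strand: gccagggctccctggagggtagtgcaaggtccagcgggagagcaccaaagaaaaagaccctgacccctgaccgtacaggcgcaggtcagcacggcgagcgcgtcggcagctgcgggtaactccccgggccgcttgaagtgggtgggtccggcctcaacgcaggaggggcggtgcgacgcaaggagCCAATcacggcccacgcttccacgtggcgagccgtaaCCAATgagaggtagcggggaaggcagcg
Cenpe, chr3:135212313-135212562, plus strand: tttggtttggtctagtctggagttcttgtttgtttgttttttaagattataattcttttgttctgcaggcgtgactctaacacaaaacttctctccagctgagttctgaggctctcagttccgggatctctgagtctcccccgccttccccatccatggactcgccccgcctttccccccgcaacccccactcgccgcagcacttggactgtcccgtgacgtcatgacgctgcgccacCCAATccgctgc
Ccnb2, chr9:70421555-70421804, minus strand: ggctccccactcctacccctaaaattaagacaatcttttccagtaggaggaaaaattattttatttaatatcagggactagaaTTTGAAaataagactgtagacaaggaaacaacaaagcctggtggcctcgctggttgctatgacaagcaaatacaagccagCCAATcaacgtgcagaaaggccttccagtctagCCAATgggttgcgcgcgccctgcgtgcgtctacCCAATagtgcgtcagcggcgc
Cdc20, chr4:118437344-118437593, minus strand: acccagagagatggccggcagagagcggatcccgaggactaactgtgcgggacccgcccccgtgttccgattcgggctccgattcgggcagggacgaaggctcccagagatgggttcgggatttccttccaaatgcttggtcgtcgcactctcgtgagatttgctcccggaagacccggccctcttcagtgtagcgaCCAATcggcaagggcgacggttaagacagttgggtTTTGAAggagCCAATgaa
Top2a had 6 CCAAT boxes and 2 CHR cores in this stretch, Ccnb2 had 3 and 1, and Cdc20 and Cenpf each had 2 and 1. Ttk had 2 CCAAT boxes and Cenpe had 1, both with no CHR core before the start. In the full windows, which also take in 50 bases after the start, the CHR core was present in 8 of the 9 genes with an entry that were lower after irradiation without the length adjustment. These 8 included Ttk and Cenpe. It was present in 16 of the 23 that did not pass the test, so both sets mostly carried it. A match of letters is a description and not evidence of binding.

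The libraries held 21185956 to 31036317 estimated reads. The irradiated libraries held relatively more reads from short transcripts: the average read came from a transcript of 5463 bases in control 2 and 4729 in control 3, and of 3715, 3625 and 3998 bases in irradiated 1 to 3. Control 2 stood apart on the first principal component, which held 60.2% of the variance, at −95.7 against −30.7 for control 3 and 22.2 to 53.7 for the irradiated libraries. Because the mitotic genes run from 744 bases (Pttg1) to 10975 bases (Cenpf), each comparison was made without and with an adjustment for transcript length, which takes out any trend with length, technical or not. Neuroendocrine markers were present in all libraries (Chga at 278 to 475 TPM), and the summed TPM of leukocyte, endothelial and fibroblast markers was at most 13.7, a value reached by the fibroblast list in control 2 through Col1a1 (13.5 TPM against at most 0.104 in the others). Lung epithelial markers summed to 3.03 and 5.41 TPM in the controls and 10 to 12.3 in the irradiated libraries, from Sftpc, with Krt5 and Scgb1a1 at 0. The part of these differences in the results was not tested.

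Without the length adjustment, 11 of the 39 mitotic genes were lower in irradiated cells and none was higher at an edgeR adjusted p under 0.05 (Benjamini-Hochberg over the 14106 genes). Over all genes tested, 13.0% were called lower and 12.7% higher, so the share of the mitotic genes called lower (28.2%) was above the background. At an unadjusted p under 0.05 the counts were 17 lower and 2 higher, against 20.1% and 20.9% of all genes. DESeq2 called 14 lower and 2 higher (Ccnb2 and Pttg1), against 16.2% and 17.1% of all genes. With the length adjustment, 6 were lower and none was higher, against 1.69% of all genes lower and 2.35% higher. The counts with the adjustment were 16 and 0 at an unadjusted p under 0.05, against 11.7% and 15.9% of all genes, and 13 and 0 by DESeq2, against 6.08% and 9.24%. All 6 were among the 11. In GENCODE M21 on GRCm38 they lie at chr3:135212537-135273611 (Cenpe), chr1:189640606-189688086 (Cenpf), chr2:119047119-119105501 (Knl1), chr11:98992943-99024189 (Top2a), chr9:22332012-22389188 (Anln) and chr9:83834689-83872389 (Ttk). The median log2 fold change of the 39 genes was −0.26 without and −0.32 with the adjustment, beside 0.02 and 0.05 over all genes, and 24 and 33 of the 39 estimates lay below 0. The median without adjustment depended on the control libraries: it was −0.39 without control 2 and 0.09 without control 3.

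Seen by library, every irradiated value lay below both control values for 18 of the 39 genes in CPM (counts divided by library size, with TMM scaling factors), and above both for 3 (Ccnb2, Bub3 and Pttg1). Over all genes these shares were 29.3% and 30.1%. The other 18 genes overlapped between the groups. With the length adjustment Ccnb2, Bub3 and Pttg1 overlapped, as did Ect2, which was lower without it. Ccna2, Ccnb1, Cdc25c, Birc5, Spc25 and Cenpa then had every irradiated value below both controls. The share of all genes without overlap after the adjustment is not given here. A lower level in bulk RNA can come from fewer cells in G2 and mitosis or from less RNA per cell, and these cannot be told apart here. Without the length adjustment, 59.2% of all genes over 6000 bases were also called lower. The part of the length difference between libraries in the CPM values was not tested.

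**Figure D1:**
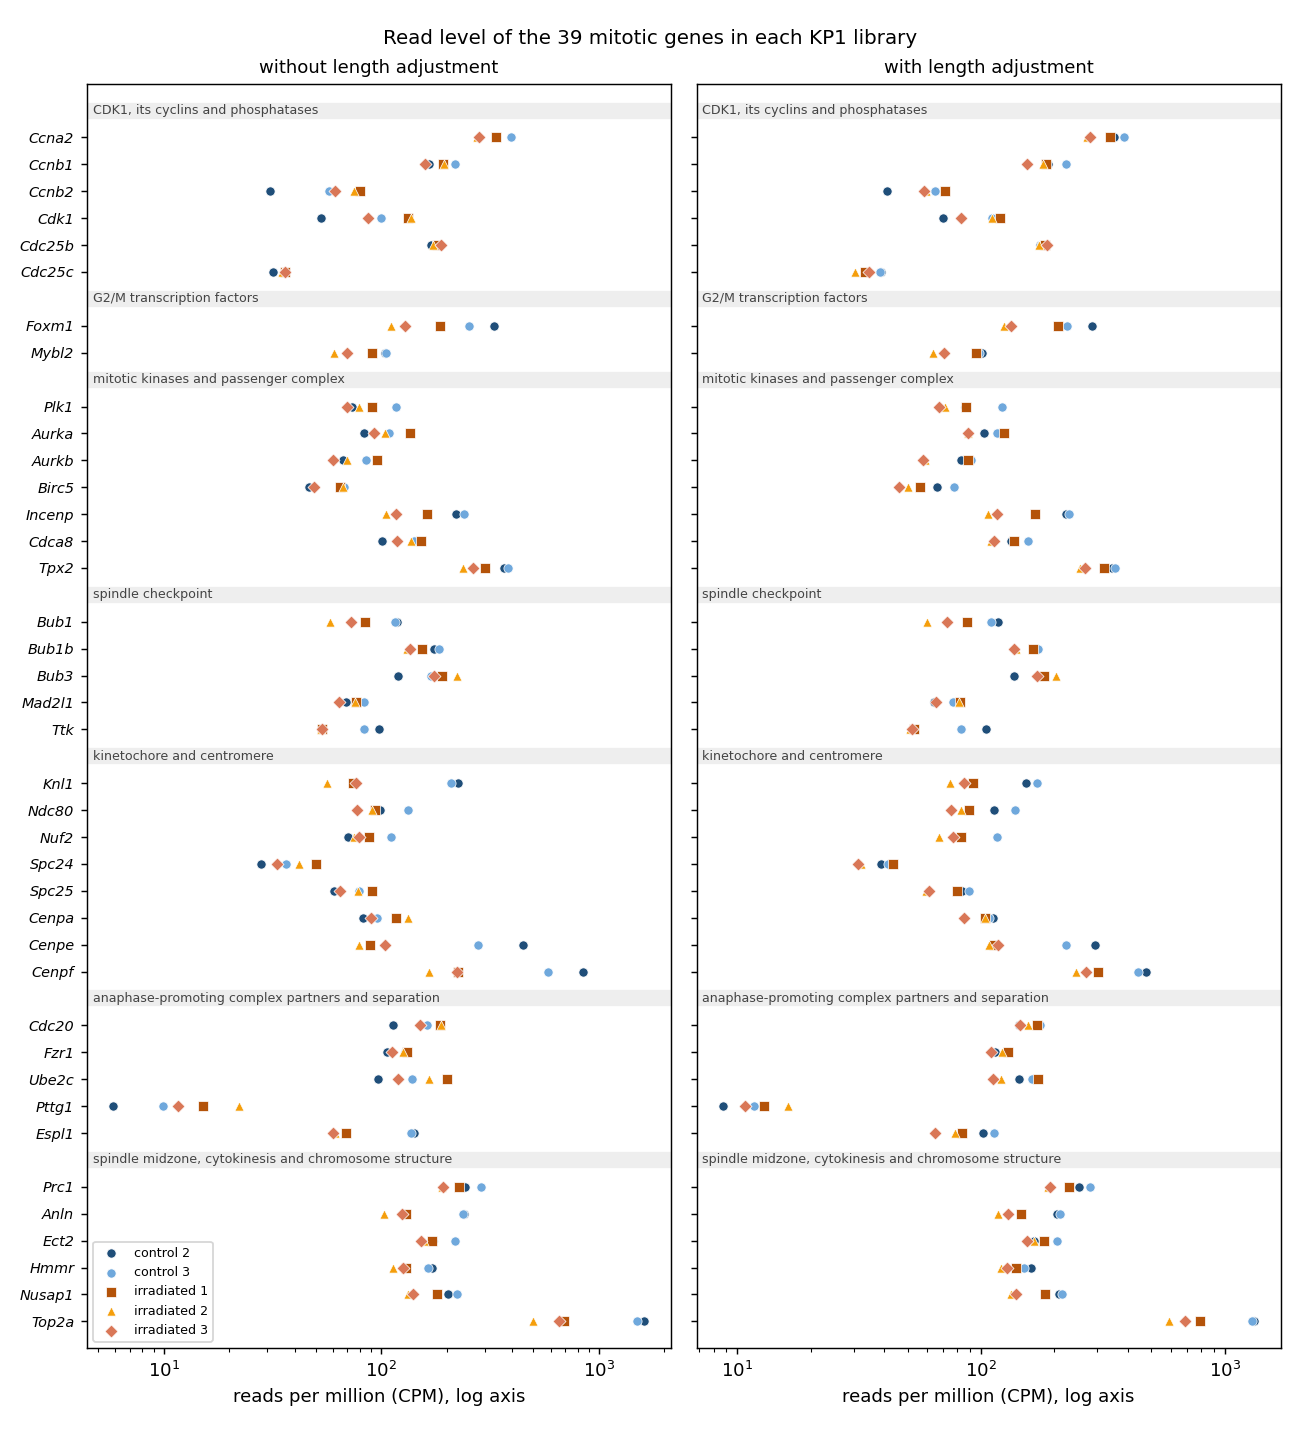
CPM (log axis) of each of the 39 mitotic genes, ordered by role, in the 2 control libraries (blue circles) and the 3 irradiated libraries (orange symbols), without (left) and with (right) adjustment for transcript length. On the left, Cenpe, Cenpf, Knl1 and Top2a show all irradiated points well below both controls, while control 2 is the lowest point for Ccnb2, Cdk1 and Pttg1.

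CDK1 and its activators were not among the genes that fell. Cdk1, the kinase that drives entry into mitosis, was at 53.0 and 100 CPM in controls 2 and 3 and at 133, 138 and 87.0 CPM in irradiated 1 to 3. Control 2 was lower than control 3 by a log2 ratio of −0.92, a gap wider than that between the groups, and irradiated 3 lay between the controls. The log2 fold change was 0.64 ± 0.30 (SE, 95% confidence interval −0.04 to 1.32, edgeR adjusted p = 0.14), and 0.21 ± 0.23 (adjusted p = 0.58) with the length adjustment. Ccnb1, which encodes cyclin B1, was at 166 and 218 CPM in the controls and 193, 195 and 159 CPM after irradiation, so the groups overlapped (log2 fold change −0.08 ± 0.18, adjusted p = 0.79). With the adjustment the 95% interval for Ccnb1 was −0.57 to 0.08. Of the other 4 genes of this group, Ccna2 (cyclin A2) had a log2 fold change of −0.30, Ccnb2 (cyclin B2) 0.71, and the CDK1-activating phosphatases Cdc25b and Cdc25c 0.04 and 0.07, with edgeR adjusted p of 0.0784 to 0.85. At an unadjusted p under 0.05, Ccnb2 alone of the 6 passed, and none passed with the adjustment. Ccnb2 passed the test without control 3, at a log2 fold change of 1.25, as did Cdk1 at 1.19, and neither passed without control 2 (0.34 and 0.27). The fit without control 3 called 15.1% of all genes higher.

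Foxm1, a transcription factor that activates G2 and mitotic genes, fell without the adjustment. It was at 328 and 253 CPM in the controls and 186, 111 and 129 CPM in the irradiated libraries. All irradiated values were below both controls, with irradiated 1 nearest to them. The log2 fold change was −1.03 ± 0.23 (a 2.05-fold lower level, edgeR adjusted p = 0.0177), and −0.73 ± 0.23 (adjusted p = 0.0941) with the length adjustment. Without control 2 the unadjusted call was lost (−0.81, adjusted p = 0.106). Mybl2, which encodes B-MYB, had estimates of −0.51 (adjusted p = 0.077) and −0.38 (adjusted p = 0.21).

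Plk1, Aurka and Tpx2 did not pass the edgeR test in either analysis, although DESeq2 without the adjustment called Tpx2 lower (16.2% of all genes lower). Plk1, the polo-like kinase needed for spindle assembly and mitotic exit, was at 73.7 and 117 CPM in the controls and 91.04, 79.2 and 69.6 CPM after irradiation. The groups overlapped, since control 2 lay below irradiated 1 and 2, and the log2 fold change was −0.26 ± 0.22 (edgeR adjusted p = 0.41). With the adjustment it was −0.47 ± 0.18 (interval −0.89 to −0.05, adjusted p = 0.15). Aurka, the kinase of the spindle poles, had estimates of 0.21 and −0.13, and Tpx2, its activator on spindle microtubules, −0.49 (adjusted p = 0.0508) and −0.32.

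The chromosomal passenger complex, which corrects faulty attachments, has 4 subunits in the list. In edgeR, 1 of them was called lower without the length adjustment and none with it. Incenp, the scaffold of the complex, was at 222 and 241 CPM in the controls and 162, 106 and 117 CPM in the irradiated libraries, with no overlap. It fell by 0.85 on the log2 scale (SE 0.20, edgeR adjusted p = 0.0195), and the estimate was close to that with the length adjustment (−0.80 ± 0.19, adjusted p = 0.0544). The unadjusted call for Incenp was lost without control 2 (adjusted p = 0.0723) or irradiated 2 (adjusted p = 0.0623). The kinase Aurkb and the subunits Birc5 (survivin) and Cdca8 (borealin) had estimates of −0.01, 0.09 and 0.17 without the adjustment, and −0.35, −0.50 and −0.27 with it. The adjusted 95% interval for Birc5, −0.82 to −0.17, lay below 0, but it did not pass the test over all genes (edgeR adjusted p = 0.0802). DESeq2 with the length adjustment called Incenp and Birc5 lower (6.08% of all genes lower).

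Of the 5 spindle checkpoint genes, Ttk and Bub1 fell. Ttk encodes MPS1, the kinase that starts checkpoint signalling at unattached kinetochores. It was at 98.0 and 83.3 CPM in the controls and at 53.7, 52.9 and 53.3 CPM in the irradiated libraries, which were nearly equal. The log2 fold change was −0.77 ± 0.14 (edgeR adjusted p = 0.011) without and −0.84 ± 0.14 (adjusted p = 0.0326) with the length adjustment, so the estimate for this gene of 2706 bases hardly moved. Bub1, a kinase that recruits other checkpoint proteins to KNL1, was at 119 and 116 CPM in the controls and 84.6, 58.4 and 72.4 CPM after irradiation. Its log2 fold change was −0.71 ± 0.18 (adjusted p = 0.0243), and −0.63 ± 0.17 (adjusted p = 0.0704) with the adjustment. Bub3, the partner that carries BUB1 and BUBR1 to KNL1, was at 120 and 169 CPM in the controls and 190, 222 and 176 CPM in the irradiated libraries. These did not overlap, but the gap between control 3 and irradiated 3 was small. With the adjustment the groups overlapped, at 137 and 174 against 182, 203 and 170 adjusted CPM. The log2 fold change was 0.44 ± 0.19 (edgeR adjusted p = 0.12), and 0.25 ± 0.15 (adjusted p = 0.32) with the adjustment. Bub1b, which encodes BUBR1, and Mad2l1, which encodes MAD2, the parts that with BUB3 and CDC20 form the inhibitor of the APC/C, had estimates of −0.35 and −0.08, with adjusted p of 0.10 and 0.76. In the fit without the length adjustment, both calls were lost without control 2, at estimates of −0.63 for Ttk and −0.67 for Bub1. The Bub1 call was also lost without irradiated 2 (edgeR adjusted p = 0.0706) or irradiated 3 (0.0535). In the length-adjusted fit, the Ttk call was lost without irradiated 1, 2 or 3 (edgeR adjusted p = 0.0774, 0.1 and 0.06). That call was also lost without control 2, at an estimate of −0.644.

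Among the 8 kinetochore and centromere genes, 3 long ones of the outer kinetochore fell in both analyses. Cenpe encodes CENP-E, a kinesin that moves chromosomes toward the spindle equator. It was at 450 and 280 CPM in controls 2 and 3 and at 89.0, 79.4 and 105 CPM in irradiated 1 to 3. The irradiated libraries lay close together and far below the controls, which differed from each other by a log2 ratio of 0.69. The log2 fold change was −2.0 ± 0.22 (4.01-fold lower, edgeR adjusted p = 0.00825). With the adjustment the levels became 294 and 223 against 113, 108 and 117 adjusted CPM, and the log2 fold change −1.20 ± 0.15 (2.3-fold lower, adjusted p = 0.0302).

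Cenpf encodes CENP-F, a large protein of the kinetochore corona and nuclear envelope. It was at 845 and 581 CPM in the controls and 226, 165 and 224 CPM after irradiation, again with no overlap. Its log2 fold change was −1.80 ± 0.22 (edgeR adjusted p = 0.00825), which became −0.75 ± 0.14 (adjusted p = 0.0372) with the adjustment, at 475 and 439 against 301, 244 and 268 adjusted CPM. The adjustment thus took away more of the estimate for this gene of 10975 bases than for any other of the 39. Knl1, the scaffold that binds BUB1, BUBR1 and the microtubule, was at 226 and 209 CPM in the controls and 74.5, 56.3 and 77.0 CPM in the irradiated libraries. It fell by 1.65 on the log2 scale (SE 0.17, adjusted p = 0.00825), and by 0.94 (SE 0.14, adjusted p = 0.0309) with the adjustment, when the values were 153 and 169 against 92.7, 74.6 and 85.2 adjusted CPM. Cenpe, Cenpf and Knl1 were the 3 mitotic genes below a log2 fold change of −1.5 without the adjustment, a limit that 1.90% of all genes passed, and none of the 39 passed it with the adjustment (0.539% of all genes).

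The NDC80 complex, the rod that holds the microtubule end, gave a different picture. In TPM, which divides by length and allows genes to be compared, Ndc80 was at 91.4 and 128 in the controls and 74.1, 68.6 and 63.8 in the irradiated libraries, and Nuf2 at 70.0 and 114 against 73.4, 59.3 and 69.2. The partner pair Spc24 and Spc25 was at 58.5 and 70.9 against 98.0, 70.3 and 79.95 TPM, and at 115 and 144 against 133, 106 and 97.9 TPM. In TPM, Ndc80 alone of the 4 had every irradiated library below both controls. The main edgeR fits called none of them. The log2 fold changes were −0.41, −0.17, 0.38 and 0.16 in this order without the adjustment (edgeR adjusted p = 0.11 to 0.58), and −0.61, −0.40, −0.17 and −0.38 with it. In these fits Ndc80 came nearest to the threshold, at an edgeR adjusted p of 0.054 with the length adjustment. Of 14 alternatives to the length-adjusted fit, 4 called Ndc80 lower, DESeq2 among them (6.08% of all genes lower). An offset from effective length alone called Spc24 higher (10.4% of all genes higher). Cenpa, the histone H3 variant that marks the centromere, had estimates of 0.35 and −0.17, and is taken up with the transcripts.

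Of the 5 genes around the APC/C and chromosome separation, separase fell and the others did not pass the test. Cdc20, which activates the APC/C in mitosis, was at 114 and 162 CPM in the controls and 186, 188 and 150 CPM in the irradiated libraries, with irradiated 3 between the controls. Its log2 fold change was 0.34 ± 0.19 (edgeR adjusted p = 0.22), and −0.03 ± 0.14 (interval −0.35 to 0.30, adjusted p = 0.93) with the adjustment. Fzr1 encodes CDH1, the activator that keeps the APC/C on after mitosis and that holds cells in G2 after DNA damage. It was at 106 and 129 CPM in the controls and 131, 126 and 112 CPM after irradiation, and the estimates were 0.07 ± 0.16 and −0.01 ± 0.13, with a 95% interval of −0.31 to 0.30 after the adjustment. Ube2c, the ubiquitin-conjugating enzyme of the APC/C, had estimates of 0.46 and −0.18, and Pttg1 (securin), which restrains separase, 1.04 (adjusted p = 0.0547) and 0.38 (adjusted p = 0.35). Pttg1 had few reads, with 168 in control 2. Espl1, the separase that cuts cohesin at anaphase, was at 142 and 137 CPM in the controls and 68.9, 61.2 and 59.9 CPM after irradiation. These values were tight within each group and did not overlap, and the log2 fold change was −1.14 ± 0.14 (adjusted p = 0.00825). With the adjustment it was −0.51 ± 0.15 (adjusted p = 0.0817) for this gene of 6466 bases.

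The genes of the spindle midzone, cytokinesis and chromosome structure all had estimates below 0, and 3 of the 6 fell. Top2a, the topoisomerase that untangles sister chromatids and the gene with the highest control level of the 39 (782 TPM, the mean of both controls), was at 1617 and 1493 CPM in the controls and 689, 500 and 654 CPM in the irradiated libraries. Its log2 fold change was −1.34 ± 0.18 (2.53-fold lower, edgeR adjusted p = 0.00825), and −0.92 ± 0.16 (adjusted p = 0.034) with the adjustment, at 1316 and 1295 against 791, 589 and 684 adjusted CPM. Anln encodes anillin, which organises the contractile ring. It was at 239 and 237 CPM in the controls and 130, 103 and 125 CPM after irradiation, a log2 fold change of −1.0 ± 0.15 (adjusted p = 0.00919), which became −0.67 ± 0.13 (adjusted p = 0.0398). Both genes thus passed the test either way with all libraries. With the adjustment, neither passed when irradiated 1, 2 or 3 was left out. The edgeR adjusted p was then 0.0762, 0.133 and 0.089 for Anln, and 0.0714, 0.1 and 0.0698 for Top2a. Anln also did not pass without control 2 or without control 3, at adjusted estimates of −0.675 and −0.616. Nor did Top2a pass without control 2, at −0.9. Hmmr, a spindle protein also known as RHAMM, was at 172 and 164 CPM in the controls and 130, 113 and 126 CPM in the irradiated libraries, and fell by 0.45 (SE 0.14, adjusted p = 0.0484), a call lost with the adjustment (−0.26, adjusted p = 0.21) and without any 1 of the 5 libraries (adjusted p = 0.0847 to 0.205). Prc1, which bundles the midzone microtubules, Ect2, which activates RhoA for the furrow, and Nusap1, a microtubule-bundling protein, had estimates of −0.38, −0.29 and −0.49. They did not pass in edgeR. DESeq2 called Nusap1 lower without and with the length adjustment (16.2% and 6.08% of all genes lower).

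**Figure D2:**
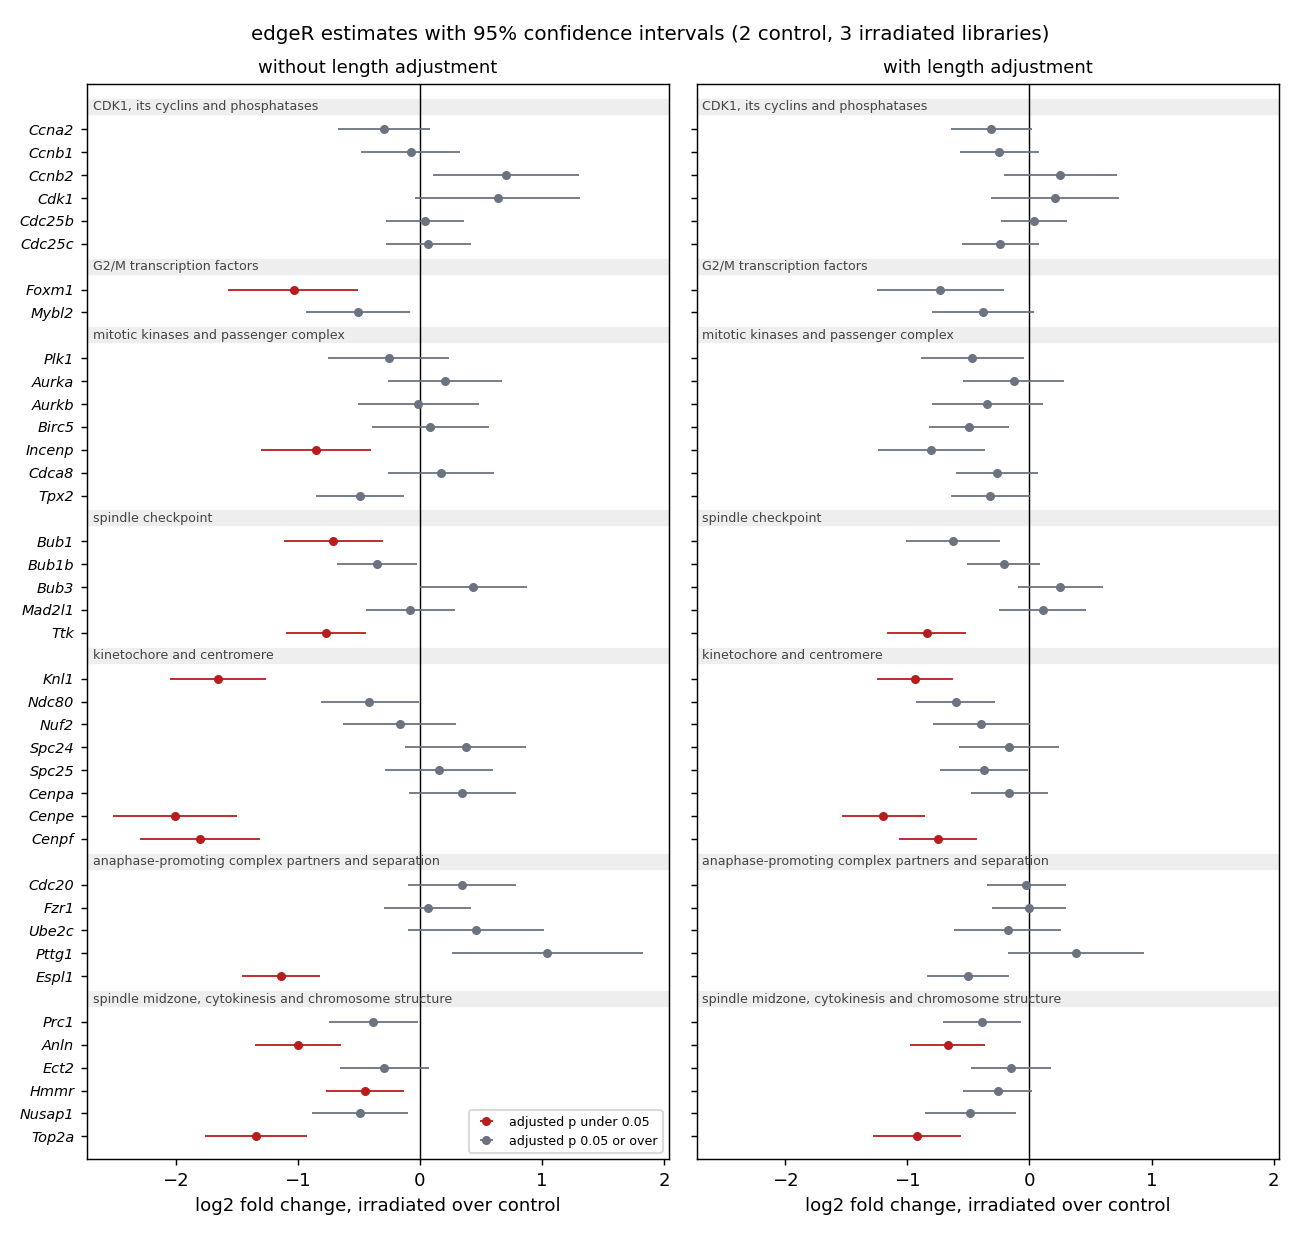
edgeR log2 fold change of irradiated over control libraries for the 39 mitotic genes by role, with 95% confidence intervals, without (left) and with (right) adjustment for transcript length. Red marks an adjusted p under 0.05, reached by 11 genes on the left and 6 on the right, all below 0; the left-hand estimates above 0 are mostly of short genes, and 9 fewer genes lie above 0 on the right.

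The calls were repeated with each library left out in turn. Without the adjustment, Anln, Cenpe, Cenpf, Espl1, Knl1 and Top2a were called lower in each of the 5 fits that left out a library, and the count over the 39 genes was 6 without control 2, 10 without control 3, and 11, 8 and 9 without irradiated 1, 2 and 3. The share of all genes called lower in these fits was 1.2%, 13.4%, 6.5%, 5.98% and 10.5%, in the same order. Without control 3, 4 genes were called higher (Bub3, Ccnb2, Cdk1 and Pttg1), against none with all libraries, in a fit that called 15.1% of all genes higher. With the adjustment no mitotic gene passed without control 2, irradiated 1 or irradiated 2; Cenpe alone passed without irradiated 3, and 5 passed without control 3, against 0.476% and 3.89% of all genes called lower in these 2 fits. At an unadjusted p under 0.05, 15, 26 and 12 of the 39 were lower without control 2, irradiated 1 and irradiated 2, against 6.2%, 10.6% and 8.19% of all genes. At an adjusted p under 0.05, at most 0.0143% of all genes were lower in these 3 fits. The estimates moved less than the calls: over the 5 fits, Cenpe ranged from −1.37 to −0.97, Knl1 from −1.01 to −0.85, Top2a from −1.04 to −0.83, Ttk from −0.98 to −0.64, Cenpf from −0.83 to −0.68 and Anln from −0.75 to −0.60.

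The estimates of the mitotic genes were ordered by transcript length. Across the 39 genes, log2 length and log2 fold change had a Pearson r of −0.91 (Spearman rho −0.89), against −0.43 (rho −0.57) across all 14106 genes tested. After the adjustment r was −0.62 (rho −0.55) for the mitotic genes and 0.01 (rho −0.05) for all genes. These are descriptions across genes of the same libraries, which are not independent replicates. The same order was present between the controls: the log2 ratio of control 2 to control 3 ran from −0.92 (Cdk1) to 0.69 (Cenpe), with r = 0.82 against length. Control 2 was below control 3 in CPM for 29 of the 39 genes.

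Within length classes the mitotic genes lay below the other genes of their own length. Over 6000 bases, where the median of 1488 genes was −0.80 and 59.2% were called lower, the 4 mitotic genes (Cenpe, Cenpf, Knl1 and Espl1) ran from −2.0 to −1.14. From 4000 to 6000 bases the median of all genes was −0.33 and the 3 mitotic genes (Foxm1, Anln and Top2a) ran from −1.34 to −1.0. From 2500 to 4000 bases, 12 of 14 mitotic genes were below the median of their class (0.01), and from 1500 to 2500 bases 9 of 12 (median 0.34). Under 1500 bases 5 of 6 were below the class median of 0.74, although all 6 estimates were above 0 (0.09 to 1.04). In all, 33 of the 39 genes were below the median of their length class.

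**Figure D3:**
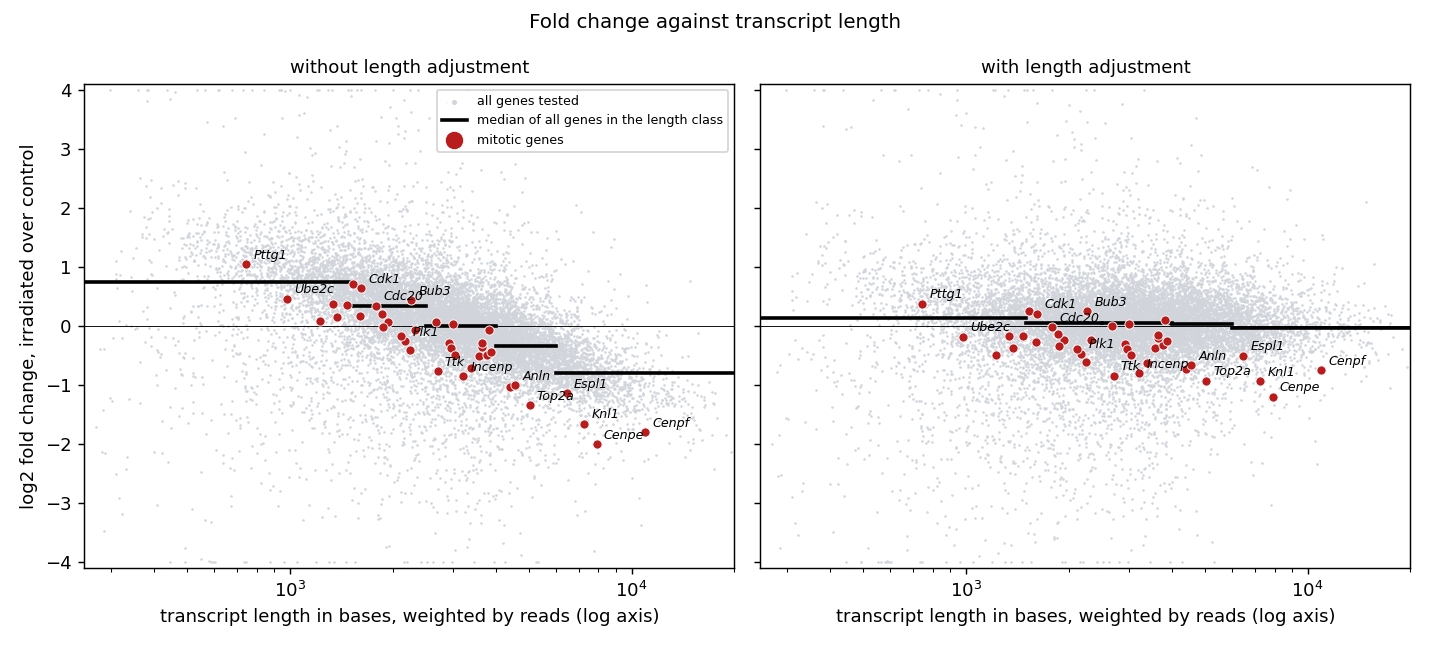
Log2 fold change (irradiated over control) against transcript length in bases (log axis) for the 39 mitotic genes (red) and all 14106 genes tested (grey, values beyond 4 drawn at 4), without (left) and with (right) the length adjustment. Black bars are the median of all genes in 5 length classes, which runs from 0.74 to −0.80 on the left and from 0.14 to −0.03 on the right; most red points lie below their bar in both panels.

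On the TPM scale, which divides by effective length but does not remove such a trend, limma on log2(TPM + 1) called 19 of the 39 genes lower and 1 (Cenpa) higher. Of all genes, 19.0% were called lower and 4.91% higher on that scale. The median of all genes was shifted to −0.24 on that scale, and that of the mitotic genes was −0.65, so relative to all genes it was −0.40. The summed TPM of the 39 genes was 5226 and 6141 in the controls and 4493, 3866 and 3736 in the irradiated libraries.

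The 39 genes have 226 annotated transcripts, 114 of them protein coding, and the share of their reads on protein-coding transcripts was 94.9 to 96.1% in every library. Transcripts annotated as retaining an intron took 2.37 and 2.39% of the reads in the controls and 1.28, 1.72 and 1.47% in the irradiated libraries. Of the 28 genes with such a transcript, its share was lower in every irradiated library than in both controls for 15, and higher for 1 (Mad2l1). Over the 7456 tested genes with such a transcript, 36.1% had a lower and 2.43% a higher share in every irradiated library, so a lower share was common among all genes. Salmon divides reads among transcripts that share exons, so these shares are estimates and were not tested.

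Cenpa showed the widest change of this kind. Its retained-intron transcript Cenpa-208 of 3806 bases held 24.6 and 22.7% of the gene's reads in the controls and 1.8, 3.7 and 5.1% in the irradiated libraries. Reads on it were 580 and 579 against 52.1, 108 and 127, while the 1031-base transcript Cenpa-202, annotated as a target of nonsense-mediated decay, went from 756 and 800 reads to 1478, 1485 and 1147. The log2 fold change of Cenpa also differed with how length was treated. It was 0.35 without the adjustment, −0.17 with it, and 1.24 (edgeR adjusted p = 0.0173) when Salmon's effective length alone was used as offset. The part of the transcript shares in these values was not tested.

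Some other genes had a longer or intron-retaining form with a smaller share after irradiation. The form named for each is the one whose mean share fell most, so its direction follows from that choice. Not every longer form fell: Tpx2-206, of 4365 bases, took 19.7 and 24.6% against 17.4, 25.9 and 18.1%. Birc5-202, a protein-coding form of 3334 bases against 947 bases for the main one, took 21.6 and 20.5% of Birc5 reads in the controls and 2.3, 6.6 and 7.2% after irradiation. Ect2-201 (retained intron) took 28.6 and 16.9% against 12.2, 9.9 and 7.1%. Ttk-204 (retained intron) took 17.8 and 7.1% against 3.1, 2.6 and 3.5%, and Fzr1-204 11 and 4.4% against 0.7, 1.1 and 1%, so that control 2 stood above control 3 in each. Mad2l1-202, a form of 7557 bases, took 50.8 and 41.7% against 27.9, 24.7 and 33.5%. Cdk1-201, of 4375 bases, took 32.3 and 16.5% against 13.9, 9.7 and 14.2%, again with control 2 highest. Whether these shares follow the same length trend as whole genes was not tested.

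**Figure D4:**
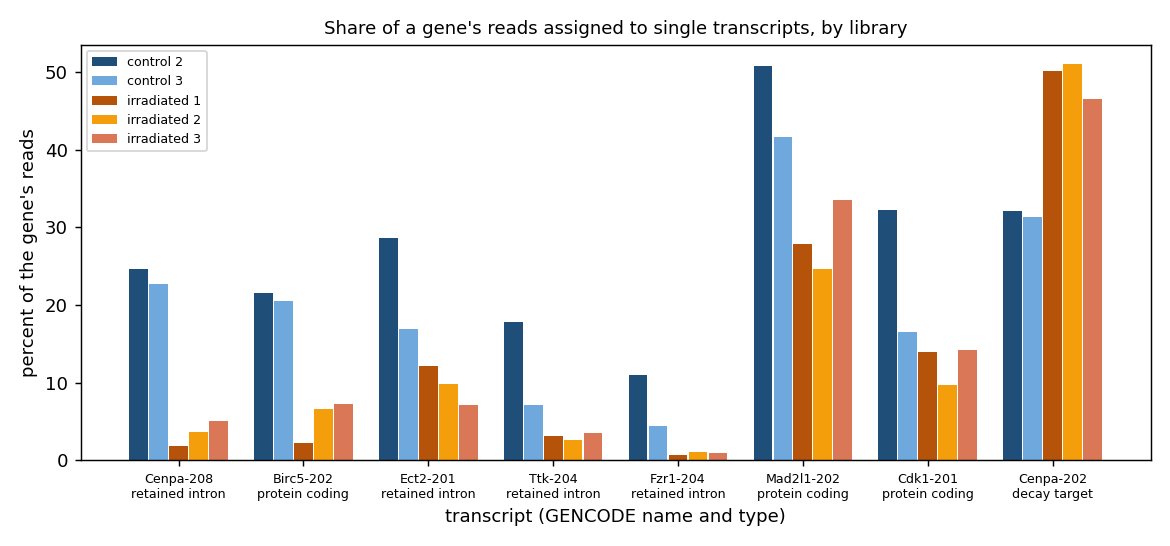
Percent of a gene's reads that Salmon assigned to each of 8 transcripts of 7 mitotic genes, in the 2 control (blue) and 3 irradiated (orange) libraries, with the annotated type under each name. For each gene the transcript whose mean share fell most is drawn, and for Cenpa also the one whose mean share rose most. The direction of each mean therefore follows from this choice. For 7 of them every irradiated bar is below both control bars, and for Cenpa-202 the irradiated bars (46.5 to 51.0%) are above both controls.

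Other genes of the same pathway were mixed. Of all genes tested, 13.0% were called lower and 12.7% higher without the adjustment, and 1.69% and 2.35% with it. At an unadjusted p under 0.05 in the adjusted fit, these shares were 11.7% and 15.9%. Of 33 further kinetochore and inner centromere genes, 8 were lower and 1 higher without the adjustment, and 5 lower and none higher with it (15 and 1 at an unadjusted p under 0.05). Kntc1, Zw10 and Spdl1, which recruit dynein and MAD1 to kinetochores, and Cenpo, an inner kinetochore subunit, were lower in both. Kntc1 was at 226 and 183 CPM in the controls and 88.1, 73.2 and 88.9 CPM after irradiation, and its log2 fold change was −1.29 ± 0.16 (edgeR adjusted p = 0.00825) and −0.61 ± 0.12 (adjusted p = 0.0405). Zw10, Spdl1 and Cenpo, all near 2500 to 2800 bases, had estimates of −0.61, −0.64 and −0.70 without and −0.65, −0.77 and −0.75 with the adjustment. Of 16 genes of mitotic entry and its brakes, 4 were lower and 2 higher, then 1 lower and none higher (6 and 3 at an unadjusted p under 0.05). The lower gene was Melk, a kinase transcribed with the mitotic genes (−0.79 and −0.81, adjusted p = 0.0135 and 0.0395).

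The 16 APC/C subunits and regulators gave 1 lower and 3 higher without the adjustment and none with it, at an unadjusted p under 0.05 then 0 lower and 6 higher. The shares of all genes were 13.0% lower and 12.7% higher without the adjustment, and 1.69% and 2.35% with it. At the unadjusted p they were 11.7% and 15.9%. Of the 5 MuvB genes, Rbbp4, a histone-binding protein shared with other chromatin complexes, was higher in both analyses (0.68 ± 0.18 and 0.98 ± 0.18, edgeR adjusted p = 0.0289 and 0.0368). As a comparison from another cell cycle phase, 28 DNA replication genes gave 5 lower and 6 higher, then 2 lower and 1 higher. The lower ones were 17.9% of this list without and 7.14% with the adjustment. The medians of the list were 0.04 and −0.08, beside −0.26 and −0.32 for the mitotic genes. Pole and Lig1, a DNA polymerase and a ligase, were the ones lower in both, and Gins2, of the replicative helicase, was higher in both (1.06 ± 0.24 and 1.24 ± 0.24, adjusted p = 0.018 and 0.0374). The difference between the replication and mitotic lists was not tested.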

How the data were processed

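RNA from the KP1 cell pellets was sequenced on an Illumina platform, and per the submitters' processing notes the authors quantified reads with Salmon 0.8.2 on mm10. The deposited values are estimated counts and TPM per transcript. Strandedness and batches were not given in the sources used here. Of 113116 transcripts, 112762 (99.69%) matched GENCODE M21 and were summed to 35056 genes; counts were rounded to whole numbers. Groups came from the labels. Nothing says that the libraries came from separate cultures, so p-values measure the spread between these libraries, which may be technical.

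The main test was edgeR 4.0.16 (quasi-likelihood, TMM, filterByExpr, no covariate, R 4.3.3), with Benjamini-Hochberg adjustment over 14106 genes, a threshold of 0.05 and the study's log2 limit of 1.5. The authors tested with DESeq2 and independent hypothesis weighting, which was not used here. The second fit added an offset per gene and library: a natural spline (5 degrees of freedom) on log2 transcript length, weighted by reads. SE is the log2 fold change over the square root of F, and intervals are 95%. TPM was tested by limma 3.58.1 with pseudocounts of 1 and 0.1. Alternatives were RLE and upper-quartile factors, other filters, DESeq2 1.42.0, other length offsets, a replicate block and leaving out each library. Scripts were tested on simulated data. No transcript of another gene matched a member's main transcript at 95% identity over 80% of its length (blastn 2.17.0).

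The members and lists were chosen with earlier results of these data known. Values per library are given for each member called in either fit and for Cdk1, Ccnb1, Plk1, Cdc20, Fzr1, Bub3 and Foxm1; of the wider lists, those called in both fits are named. Promoters are from RefSeq, with gene positions from GENCODE M21 (GRCm38).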

Additional observations from a re-analysis of the deposited data

How the results depend on the processing

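Groups of 2 and 3 libraries limit what can be called, and the labels do not say whether libraries with the same replicate number belong together. The difference of replicates 2 and 3 correlated at −0.17 between the groups across genes. This value cannot settle the pairing, because the length difference ran in opposite directions. The average read came from 5463 bases in control 2 and 4729 in control 3, but from 3625 in irradiated 2 and 3998 in irradiated 3. With the replicate number as a block, 8 of the 39 genes were lower and 0 higher without the length adjustment (3.5% and 4.27% of all genes), and 0 were lower with it (0.135% of all genes), or 18 at an unadjusted p under 0.05 (6.88%). With the crossed numbers as a block, chosen after seeing the data, 19 were lower and 5 higher without the adjustment (18.9% and 21.5% of all genes) and 21 lower and 0 higher with it (6.52% and 9.46%).

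The remaining counts that moved by over 1.5 times were as follows, with the share of all genes called in parentheses. Without the adjustment, the count of higher genes was 1 with upper-quartile factors (14.7%), 3 with no filter on low counts (12.3%), 2 by DESeq2 (17.1%) and 0 to 4 when a library was left out (0.65 to 15.1%), and the count of lower genes was 6 to 11 without 1 library (1.2 to 13.4%). On TPM, 19 genes were lower and 1 higher with pseudocounts of 1 (19.0% and 4.91%, median −0.645) and 0.1 (18.7% and 5.11%, median −0.652). The median ran from −0.385 to 0.089 without 1 library. With the adjustment, 11 were lower and 1 higher with no filter (3.87% and 8.4%), 12 lower, 2 higher and 3 lower past 1.5 with the effective length alone (9.85%, 10.4% and 1.49%), 13 lower by DESeq2 (6.08%), and 0 to 5 lower without 1 library (0.00684 to 3.89%). The cause was not tested. RLE factors gave the same 11 and 6 genes.

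Some estimates changed sign, most of them near 0. Without the adjustment, Aurkb was 0.044 with upper-quartile factors and 0.034 with no filter. On log2(TPM + 1) the values were Cdc25b −0.281, Cdc25c −0.205, Aurka −0.082, Cdca8 −0.274, Spc25 −0.211 and Fzr1 −0.248, and on log2(TPM + 0.1) Cdc25b −0.283, Cdc25c −0.21, Aurka −0.083, Cdca8 −0.275, Spc25 −0.212 and Fzr1 −0.251. Over the fits that left out 1 library, Birc5 ranged from −0.135 to 0.393, Cdca8 from −0.029 to 0.452 and Spc25 from −0.004 to 0.379. Fzr1 ranged from −0.045 to 0.23, Ccnb1 from −0.241 to 0.157 and Plk1 from −0.532 to 0.135. The ranges were −0.222 to 0.191 for Aurkb, −0.19 to 0.089 for Mad2l1 and −0.436 to 0.218 for Nuf2. With the adjustment, the values were Spc24 0.07, Cenpa 0.031, Cdc20 0.071, Fzr1 0.017 and Ube2c 0.195 with no filter, Cdc25c 0.135, Aurka 0.27, Birc5 0.358, Cdca8 0.061, Spc24 0.706, Spc25 0.145, Cenpa 1.242, Cdc20 0.363, Fzr1 0.095 and Ube2c 0.537 with the effective length alone (Birc5 and Spc25 were at −0.495 and −0.375 before), Cdc20 0.076 and Fzr1 0.045 with a straight line, and Mad2l1 −0.485 and Fzr1 0.06 with the main transcript's length. Over the length-adjusted fits that left out 1 library, Ccnb2 ranged from −0.009 to 0.678, Cdk1 from −0.063 to 0.64 and Mad2l1 from −0.005 to 0.283. Aurka ranged from −0.312 to 0.001, Cdc20 from −0.141 to 0.17 and Fzr1 from −0.069 to 0.104. The ranges were −0.372 to 0.079 for Ube2c and −0.282 to 0.053 for Ect2. Of the estimates that changed sign, Spc24 and Cenpa passed the test in the reversed direction, with the effective length alone (edgeR adjusted p = 0.0483 and 0.0173). Of the other estimates of single genes under the alternatives, 893 kept their direction and side of the threshold, 57 newly passed it and 47 no longer passed it.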
